A study of Sus scrofa with 6 samples.

Results

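The genes described here are the enzymes and metal-binding proteins that hold superoxide, peroxide and free metal ions in check: the superoxide dismutases SOD1 and SOD2, the copper chaperone CCS, catalase (CAT), the peroxiredoxins PRDX1, PRDX2 and PRDX6, thioredoxin (TXN) and the metallothionein MT-2B. They were taken by name, as every probe set to which the array's annotation gave exactly 1 symbol and that symbol was a member, which found 11 probe sets of 9 genes among the 24123 probe sets of the array. CCS and TXN each had 2 probe sets and the other 7 genes had 1. All 11 probe sets were above a signal of 50 on all 6 arrays, so none was lost to the filter on dim probe sets.

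The arrays held RNA of healthy, large follicles dissected from the ovaries of multiparous, cycling sows, 3 of the Large White breed and 3 of a prolific Chinese breed that the sample labels call Chinese Erhualian and the study calls Chinese Taihu. Every sow of both breeds was given PMSG, a mare serum hormone that drives follicle growth, at 1000 IU, then after 80 h hCG, which stands in for the ovulatory surge of luteinizing hormone, at 500 IU, and was killed 30 to 38 h after hCG. Each sow had 1 array, and each breed came from a farm of its own, so breed and farm cannot be told apart. No untreated sows were analysed here, and the comparison is Chinese Taihu against Large White at a single stage.

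Superoxide is converted to hydrogen peroxide by SOD1 in the cytosol and by SOD2 in mitochondria. Catalase, peroxiredoxins and glutathione peroxidases then remove the peroxide, with thioredoxin returning electrons to most peroxiredoxins. Metallothioneins bind zinc and copper, CCS hands copper to SOD1, and steroid-making follicle and luteal cells are known for producing reactive oxygen species as their cytochrome P450 enzymes work. In whole follicles, fewer cells of a type and less RNA per cell cannot be told apart.

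Of 19196 probe sets kept by the filter, limma gave 741 (3.86%) an unadjusted p of at most 0.05, of which 300 (1.56%) were higher and 441 (2.30%) lower in the Chinese breed, and 4 (0.0208%) an adjusted p below 0.05. Chinese Taihu sow 1 stood apart. Its array correlated with the other 5 at r = 0.834 to 0.887, against 0.907 to 0.967 among the others, and the summed signal of 12 genes of surface and oviduct epithelium was 52219 there against 2046 to 9268 elsewhere, with all 12 highest in that sow. Its summed signal was also the lowest for 11 granulosa genes, at 2150.0 against 12226 to 18837, and for 8 theca and steroid genes, at 2409 against 11585 to 56365. INHA, the inhibin subunit made by granulosa cells and the brightest of these 11, had signals of 6509.8, 9989.5 and 10684 in the Large White sows, with 446, 9602 and 8246 in those of Chinese Taihu. Not every granulosa gene was low in Chinese Taihu sow 1: 2 of the 11 were highest there, INHBA among them (899 against 233 to 387). The theca and steroid sum was highest in Chinese Taihu sow 2 (56365) and Large White sow 1 (51631), and 20 leukocyte genes summed to 32305 in Large White sow 2 against 6003 to 11530.0 elsewhere. Sums of 8 smooth muscle genes (17294 to 28383) and 9 endothelial genes (5307 to 6415) spread less. The muscle sum hides wider single genes: ACTA2, the brightest, was 8013 to 10610, but CNN1 was 472 to 3979 and ACTG2 675 to 4355. Both CNN1 and ACTG2 were highest in Chinese Taihu sow 1 and lowest in sow 3. The 18 probe sets of control transcripts added at hybridization were brighter on the arrays of Chinese Taihu, at 1.29 to 1.44 when the mean over Large White is set to 1, than on those of Large White, at 0.952 to 1.07. The part of these differences in the values below was not tested. The fits without single sows bear only on what 1 sow carried. They cannot address the control transcripts, which were brighter on every Chinese Taihu array.

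Of the 11 member probe sets, 1 was higher and 1 lower in Chinese Taihu at an unadjusted p of at most 0.05, that is 18.2% of them beside 3.86% of all tested (1.56% higher, 2.30% lower). The higher probe set was that of MT-2B and the lower was a probe set of CCS. No member had an adjusted p below 0.05, beside 0.0208% of all tested; limma's adjusted p was 0.993 or above for each of the 11, and the methods' t-test likewise left 0. For 3 of the 11 probe sets the breeds showed no overlap (27.3%, beside 9.10% of all tested), namely MT-2B and both of CCS. CCS counts for 2 of these, and with 1 probe set a gene it was 2 of 9. Members were chosen with earlier results of these data known, so the member shares beside those of all tested are no test. The median difference over the members was -0.02 on the log2 scale, beside 0 over all tested, and 5 members had a positive and 6 a negative difference. Spread between sows of 1 breed was usual in size, with a median pooled SD of 0.34 log2 units over the members and 0.30 over all tested. An exact permutation test of 3 sows against 3 cannot give a p under 0.1, and it gave 0.1 for those 3 probe sets.

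**Figure D1:**
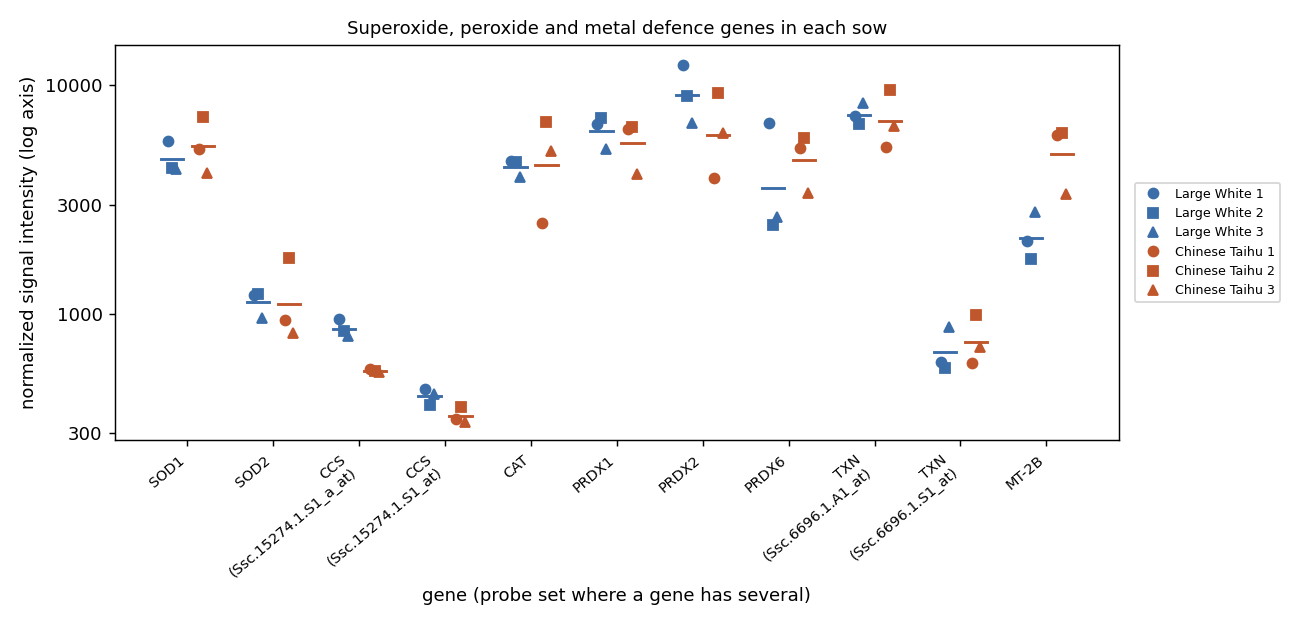
Normalized signal intensity (log axis) of the 11 member probe sets in each sow, in blue for Large White and orange for Chinese Taihu, with a line at each breed's geometric mean. The breeds separate for MT-2B (1731 to 2786 against 3342 to 6182) and for both CCS probe sets and overlap for the other 8; heights should be compared within a probe set, since probe sets differ in brightness for the same RNA.

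MT-2B, a metallothionein that binds zinc and copper and is induced by metals and glucocorticoids, had the largest breed difference of the members, higher in Chinese Taihu at unadjusted p only. Its signal was 2069.8, 1731 and 2786 in the Large White sows and 6036, 6182 and 3342 in the Chinese Taihu sows. The lowest Chinese Taihu sow, sow 3, was above the highest Large White sow, also sow 3, and Chinese Taihu sows 1 and 2 were both well above it. Mean signals were 2195 ± 539 (SD, n = 3) in Large White and 5186 ± 1599 (SD, n = 3) in Chinese Taihu, a ratio of 2.36. The difference was 1.21 log2 units (SE 0.31, 95% interval 0.48 to 1.95), with an unadjusted p of 0.00648 and an adjusted p of 0.993 in limma. Leaving out each sow in turn gave 1.06 to 1.50 log2 units with unadjusted p of 0.00129 to 0.0243 in limma, and without Chinese Taihu sow 1 it was 1.08 (unadjusted p = 0.0210). Since the breeds did not overlap, leaving out 1 sow could not change the sign. All 15 alternative fits kept an unadjusted p of at most 0.05 for MT-2B and none reached an adjusted p of 0.05, the lowest being 0.637 in limma without Chinese Taihu sow 3.

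Metallothionein genes lie side by side and resemble each other: on the Sscrofa11.1 assembly MT-2B is placed between MT3 and MT1D, with MT4 next to MT3. Signals of such near copies may be shared between their probe sets, and MT1A is read by a probe set whose suffix (_s_at) marks probes common to several transcripts. MT1A had signals of 868, 1102 and 779 in the Large White sows, with 7659.5, 5314 and 625 in those of Chinese Taihu. Chinese Taihu sows 1 and 2 were thus far above every Large White sow, while sow 3 was below all of them, and the difference of 1.70 log2 units (SE 0.91) had an unadjusted p of 0.110 in limma. Without Chinese Taihu sow 3 it was 2.81 log2 units with an unadjusted p of 8.57e-05 in limma. That fit left out the only Chinese Taihu sow that went against the difference, so its p is no separate test. Leaving out any other single sow gave smaller positive differences, with unadjusted p of 0.153 to 0.288 in limma. MT3, a metallothionein first known from brain and named here after its values were seen, had signals of 1401, 405 and 485 in the Large White sows, with 2759, 801 and 445 in those of Chinese Taihu, a difference of 0.61 log2 units (SE 0.77, unadjusted p = 0.457). In MT3, as in MT1A, the highest sow was Chinese Taihu sow 1, whereas MT-2B was about as high in sow 2 as in sow 1. The summed signal of the epithelial genes was 52219 in Chinese Taihu sow 1, 2046 in Chinese Taihu sow 2 and 9268 in Large White sow 3. Its part in the metallothionein values was not tested. A further, dimmer probe set, assigned to both MT1A and MT3, read 198.7, 170.1 and 192.7 in the Large White sows, with 259.7, 235.6 and 187.2 in those of Chinese Taihu. Its difference was 0.27 log2 units (unadjusted p = 0.192 in limma). Chinese Taihu sows 1 and 2 were above every Large White sow there, and sow 3 lay within the Large White range.

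CCS, the chaperone that delivers copper to SOD1, was lower in Chinese Taihu, at unadjusted p only, by its probe set Ssc.15274.1.S1_a_at. That probe set read 948, 838 and 797 in the Large White sows, with 572, 561 and 556 in those of Chinese Taihu. All 3 Chinese Taihu sows lay within a narrow band below the lowest Large White sow. Mean signals were 861 ± 78.1 (SD, n = 3) in Large White and 563 ± 7.73 (SD, n = 3) in Chinese Taihu, a ratio of 0.654. The difference was -0.61 log2 units (SE 0.17, 95% interval -1.03 to -0.19), with an unadjusted p of 0.0113 and an adjusted p of 0.993 in limma. The pooled SD within a breed was 0.0922 log2 units, the lowest of the members, and limma's SE is larger than that spread alone would give because the test draws each probe set's variance toward that of probe sets of like signal.

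The second CCS probe set, Ssc.15274.1.S1_at, read 471, 400.3 and 446 in the Large White sows, with 345, 393 and 337 in those of Chinese Taihu. The breeds did not overlap here either, although Large White sow 2 and Chinese Taihu sow 2 were only a few units apart. Its difference was -0.29 log2 units (SE 0.17, 95% interval -0.72 to 0.13) and its unadjusted p was 0.141 in limma, against 0.0395 by the methods' t-test. Both probe sets were lowest in Chinese Taihu sow 3 and highest in Large White sow 1. The first kept an unadjusted p of at most 0.05 in all 15 alternative fits and moved between -0.66 and -0.54 log2 units when single sows were left out, with -0.62 (unadjusted p = 0.0269) without Chinese Taihu sow 1.

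SOD1, the copper and zinc enzyme of the cytosol that CCS serves, did not pass the test. Its signal was 5703, 4338 and 4296 in the Large White sows, with 5254, 7256 and 4122 in those of Chinese Taihu, with the highest and the lowest value both in Chinese Taihu. The difference was 0.19 log2 units (95% interval -0.39 to 0.77, unadjusted p = 0.462), so a fall of the size read for CCS (-0.61) lay outside the interval and a rise of that size inside it. SOD2, the manganese enzyme of mitochondria, read 1213, 1217 and 959 in the Large White sows, with 944, 1744 and 828 in those of Chinese Taihu. Chinese Taihu sow 2 was again the highest and sow 3 the lowest, and the difference was -0.02 log2 units (95% interval -0.79 to 0.75, unadjusted p = 0.956). Without Chinese Taihu sow 1 the differences were 0.21 for SOD1 and 0.10 for SOD2.

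**Figure D2:**
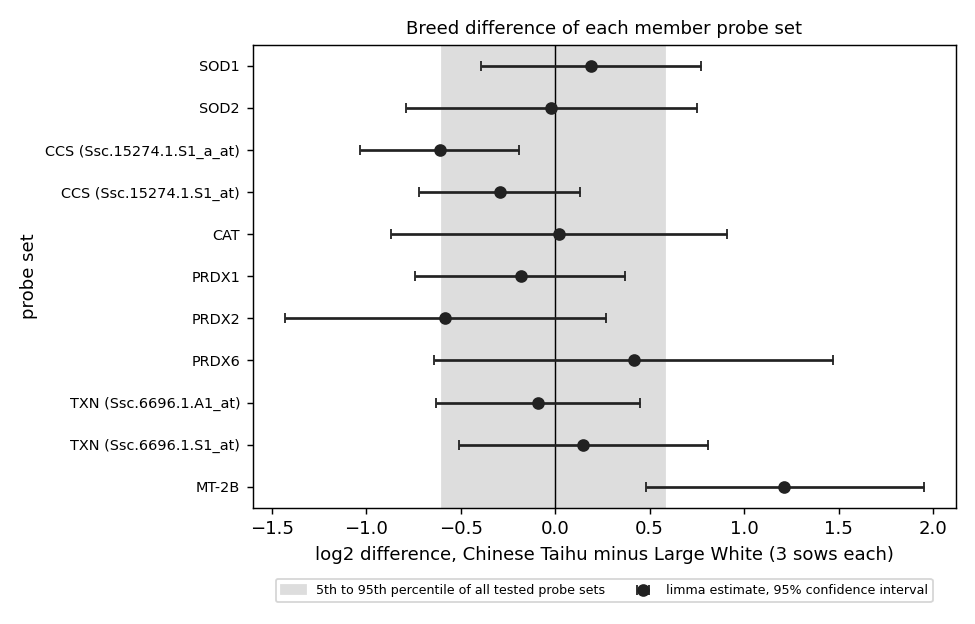
Difference of each member probe set in log2 units, Chinese Taihu minus Large White, as limma's estimate (point) with its 95% confidence interval (bar), over a grey band from the 5th to the 95th percentile of all tested probe sets (-0.60 to 0.58). The interval leaves out 0 for MT-2B (0.48 to 1.95) and for 1 CCS probe set (-1.03 to -0.19).

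Catalase, which splits hydrogen peroxide in peroxisomes, had a pooled SD within a breed of 0.545 log2 units, second among the members to PRDX6. Its signal was 4657, 4588 and 3967 in the Large White sows, with 2482, 6920 and 5121 in those of Chinese Taihu. The 3 Large White sows were close together, and the Chinese Taihu sows lay on both sides of them. The difference was 0.02 log2 units (95% interval -0.87 to 0.91, unadjusted p = 0.963). It was 0.44 (unadjusted p = 0.0662) without Chinese Taihu sow 1, the lowest, and -0.30 without sow 2, the highest, so the sign of the catalase difference changed with the sows included.

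The peroxiredoxins reduce peroxides through a reactive cysteine. PRDX1 and PRDX2, abundant cytosolic forms recycled by thioredoxin, and PRDX6, a form recycled with glutathione that also acts on phospholipids, all overlapped between the breeds. PRDX1 read 6752, 7145 and 5224 in the Large White sows, with 6415, 6547 and 4094 in those of Chinese Taihu. Sow 3 was the lowest of each breed, and the difference was -0.18 log2 units (95% interval -0.74 to 0.37, unadjusted p = 0.453). PRDX2 read 12227, 8913 and 6846 in the Large White sows, with 3933, 9229 and 6167 in those of Chinese Taihu. Chinese Taihu sows 1 and 3 were below all Large White sows and sow 2 was above 2 of them, giving -0.58 log2 units (SE 0.35, 95% interval -1.43 to 0.27, unadjusted p = 0.149). Without Chinese Taihu sow 2 the PRDX2 difference was -0.88 (unadjusted p = 0.0341), and without sow 1 it was -0.27 (unadjusted p = 0.406).

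PRDX6 read 6789, 2447 and 2649 in the Large White sows, with 5304, 5839 and 3380 in those of Chinese Taihu. Every Chinese Taihu sow was above Large White sows 2 and 3, but Large White sow 1 was the highest of all, at 2.77 times the lowest. The difference was 0.42 log2 units (SE 0.44, 95% interval -0.64 to 1.47, unadjusted p = 0.375), and it was 0.89 (unadjusted p = 0.0229) without Large White sow 1. Among the 11 member probe sets, PRDX6 had the largest pooled SD within a breed, 0.65 log2 units.

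PRDX2, catalase and SOD1 are also abundant proteins of red blood cells, so the red cell genes are given beside them. HBB, the beta chain of haemoglobin, read 345, 362 and 575 in the Large White sows, with 599.9, 475 and 717 in those of Chinese Taihu, a difference of 0.50 log2 units that did not pass (unadjusted p = 0.121). ALAS2, the haem-making enzyme of red cell precursors, read 104, 74.9 and 63.4 against 166, 137 and 102 (0.74 log2 units, unadjusted p = 0.0292). AHSP, which stabilizes free alpha globin, was dimmer still and differed by 1.16 log2 units (unadjusted p = 0.0377). It read 40.7 and 30.1 in Large White sows 2 and 3, below the filter of 50. The remaining tested red cell genes, HBE1 and KLF1, differed by 0.20 (unadjusted p = 0.293) and 0.03 (unadjusted p = 0.864) log2 units in limma. The calls of ALAS2 and AHSP were each lost without Chinese Taihu sow 1 (0.58 and 0.86), Chinese Taihu sow 2 (0.72 and 1.12), Large White sow 2 (0.70 and 1.08) or Large White sow 3 (0.58 and 0.87). Of 17 red cell genes listed, 5 were measured and tested, 2 of them higher and 0 lower in Chinese Taihu at an unadjusted p of at most 0.05, beside 3.70% of all 6322 genes tested in either direction, with summed signals of 608 to 806 in Large White and 878 to 1078 in Chinese Taihu. The sums did not overlap between the breeds, whereas 0 of the 5 genes taken singly were without overlap (beside 9.10% of all tested probe sets), HBB being the brightest part of the sum. Their part in the values of PRDX2, CAT and SOD1 was not tested.

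Thioredoxin, the small dithiol protein that reduces peroxiredoxins, was measured by 2 probe sets that overlapped between the breeds. Ssc.6696.1.A1_at read 7305, 6734 and 8305 in the Large White sows, with 5379, 9523 and 6604 in those of Chinese Taihu, a difference of -0.09 log2 units (95% interval -0.63 to 0.45, unadjusted p = 0.698). Ssc.6696.1.S1_at read 617, 581 and 877 in the Large White sows, with 607, 990.0 and 717 in those of Chinese Taihu, a difference of 0.15 (95% interval -0.51 to 0.81, unadjusted p = 0.598). Chinese Taihu sow 2 was highest and Large White sow 3 was next in both, so the probe sets ordered the upper sows alike while their breed differences had opposite signs. Each sign turned on 1 sow: the first was 0.10 without Chinese Taihu sow 1, and the second was -0.04 without Chinese Taihu sow 2.

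Most members were highest in the same 2 sows. Chinese Taihu sow 2 was the highest of the 6 for 6 member probe sets (SOD1, SOD2, CAT, both of TXN and MT-2B) and Large White sow 1 for 4 (both of CCS, PRDX2 and PRDX6), while PRDX1 was highest in Large White sow 2. So 10 of 11 peaked in 1 of 2 sows in which 34.9% of all tested probe sets peaked. This pair of sows was picked after the members' values were seen, so the 2 shares side by side are no test. CCS and TXN count for 2 probe sets each. The same pair had the highest theca and steroid sums, 56365 and 51631 against 2409 to 16583 elsewhere, and the part of that difference in the members' values was not tested. The lowest sow was Chinese Taihu sow 3 for 5 probe sets, Chinese Taihu sow 1 for 3 and Large White sow 2 for 3. Against each probe set's median over the 6 arrays, the median member stood at 0.46 log2 units in Chinese Taihu sow 2, 0.17 in Large White sow 1 and -0.01 in Large White sow 2. It stood at -0.15 in Large White sow 3 and was lowest in sows 1 and 3 of Chinese Taihu, at -0.19 and -0.24, whereas the median of all tested probe sets was between -0.01 and 0.01 in every sow.

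**Figure D3:**
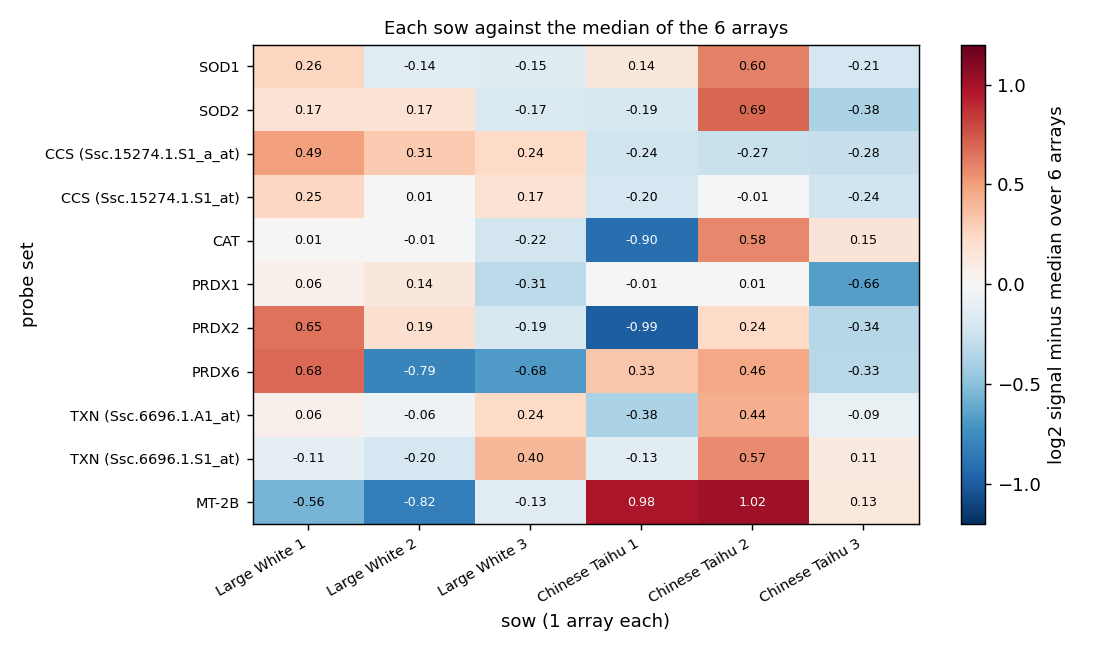
Log2 signal of each member probe set in each sow minus that probe set's median over the 6 arrays, with red above and blue below it. Chinese Taihu sow 2 has values of 0.44 to 0.69 for SOD1, SOD2, CAT and TXN and 1.02 for MT-2B, while in Chinese Taihu sow 1 PRDX2 (-0.99) and CAT (-0.90) are low and MT-2B (0.98) is high.

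Pearson correlation of log2 signal over the 6 arrays was used to name the genes most like the 3 members with the widest range, as a description only. The same 6 libraries, cell mixtures and normalization stand behind each pair, and 6 points are few. For MT-2B (range 1.84 log2 units) the nearest were FGF7, a growth factor of stromal cells, at r = 0.988, PEX7, an import receptor of peroxisomes, at 0.980, and CACUL1 at 0.979. For PRDX2 (range 1.64) they were KPNA2, a nuclear import adaptor, at 0.993, ECD at 0.991 and BUD23, a ribosomal RNA methyltransferase, at 0.990. For CAT (range 1.48) they were GUCA2B, the peptide uroguanylin, at 0.993, RORA, a nuclear receptor, at 0.991, and HSPA13 at 0.978. Of these, FGF7 (40.5 to 68.2), RORA (35.5 to 106), GUCA2B (75.0 to 111) and CACUL1 (84.9 to 152) had low signals, and those of FGF7 and RORA were in part below the filter of 50.

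The rest of the defence system was read from 6 lists of 103 genes, of which 66 were measured and tested, with the brightest probe set standing for each gene. At an unadjusted p of at most 0.05, 1 of the 66 was higher and 2 were lower in Chinese Taihu, beside 3.70% of all 6322 genes tested, and none had an adjusted p below 0.05 in limma. The median difference was -0.02 log2 units over the 66 and -0.04 over all genes. The breeds did not overlap for 2 NRF2 genes, 2 zinc and copper genes, 1 glutathione gene and 1 iron gene among the 66. All tested probe sets had a share of 9.10% without overlap. No list held more than 2 calls, and the values below are given for the called genes and for the 3 brightest of each list.

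Among 16 other peroxiredoxin and thioredoxin genes none passed in either direction (median -0.05). TXNIP, which binds and inhibits thioredoxin, differed by 0.19 log2 units (unadjusted p = 0.259), and TXNDC17, a thioredoxin-like protein, by -0.10 (unadjusted p = 0.818). PRDX3, the mitochondrial peroxiredoxin, read 6508, 3442 and 3379 in the Large White sows, with 1929, 7278 and 2502 in those of Chinese Taihu. Like SOD2 and CAT it was highest in Chinese Taihu sow 2, and its difference of -0.37 log2 units did not pass (unadjusted p = 0.517), although without that sow it was -0.95 (unadjusted p = 0.0381).

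Among 13 glutathione peroxidase and glutathione supply genes none passed (median -0.25, 4 positive and 9 negative). GPX1, the cytosolic glutathione peroxidase, differed by -0.49 log2 units (unadjusted p = 0.110) and GPX4, which reduces lipid peroxides, by -0.27 (unadjusted p = 0.412). GPX3, the secreted form, read 11731, 9435 and 7329 in the Large White sows, with 235, 10789 and 7234 in those of Chinese Taihu. The low value stood in Chinese Taihu sow 1 alone, and the GPX3 difference was -1.82 log2 units with that sow and -0.08 without it.

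Of 12 genes of the NRF2 pathway, the transcription factor system that induces antioxidant enzymes, 6 were tested and 2 were lower (median -0.50). Over all 6322 genes tested, 3.70% were called in either direction, and 6 genes are few for a share. The same 2 were without overlap, beside 9.10% of all tested probe sets. NQO2, a quinone reductase, read 1399.9, 1036 and 1182 in the Large White sows, with 649, 775 and 689.9 in those of Chinese Taihu, without overlap. Its difference was -0.77 log2 units (SE 0.20, unadjusted p = 0.00727, adjusted p = 0.993 in limma) and kept an unadjusted p of at most 0.05 in all 15 alternative fits. HMOX1, which breaks down haem, read 1273, 3337 and 1394 in the Large White sows, with 231, 815 and 1072 in those of Chinese Taihu, also without overlap, for -1.62 log2 units (SE 0.66, unadjusted p = 0.0474). The HMOX1 call was lost without Chinese Taihu sow 1 (-0.95), Chinese Taihu sow 2 (-1.86), or Large White sow 1 (-1.88), sow 2 (-1.18) or sow 3 (-1.81), and the call kept an unadjusted p of at most 0.05 in 8 of the 15 alternatives. Its highest sow, Large White sow 2, was also the sow with the highest leukocyte sum (32305), whose part in the HMOX1 value was not tested. NQO1, a widely used marker of NRF2 activity, differed by -0.57 (unadjusted p = 0.159) and SQSTM1 by -0.06 (unadjusted p = 0.716).

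Among 8 genes that make superoxide or handle it outside cells, none passed (median -0.09). RAC1 and CYBA, parts of the NADPH oxidase, differed by -0.19 (unadjusted p = 0.366) and -0.24 (unadjusted p = 0.607), with CYBA at 4216 in Large White sow 2 against 1343 to 1964 elsewhere. SOD3, the extracellular superoxide dismutase, was level between the breeds at 729.7 ± 73.2 (SD, n = 3) in Large White and 732 ± 54.9 (SD, n = 3) in Chinese Taihu, a difference of 0.01 log2 units with a 95% interval of -0.43 to 0.45.

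Of 27 zinc and copper genes, 12 had a probe set and 11 were tested, of which 1 was higher and 0 lower (median 0.12). Over all 6322 genes tested, 3.70% were called in either direction. SLC31A1, the copper importer of the cell surface, read 761, 936 and 792 in the Large White sows, with 1174, 1131 and 1075 in those of Chinese Taihu, without overlap. The difference was 0.45 log2 units (SE 0.18, unadjusted p = 0.0437), and a second, dim SLC31A1 probe set differed by 0.24 (unadjusted p = 0.156). This call was lost without any 1 of Chinese Taihu sow 1 (0.42), sow 2 (0.44) or sow 3 (0.48) and of Large White sow 1 (0.39) or sow 3 (0.42), and also with array weights, median scaling, the replicate block and signal above 100 on all 6 arrays, so it was kept in 6 of the 15 alternatives. ATOX1, the chaperone that carries copper to the secretory pathway, differed by 0.02 log2 units (unadjusted p = 0.959) and SLC39A1, a zinc importer, by 0.18 (unadjusted p = 0.301). SLC39A1 too was without overlap between the breeds, as were 9.10% of all tested probe sets.

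**Figure D4:**
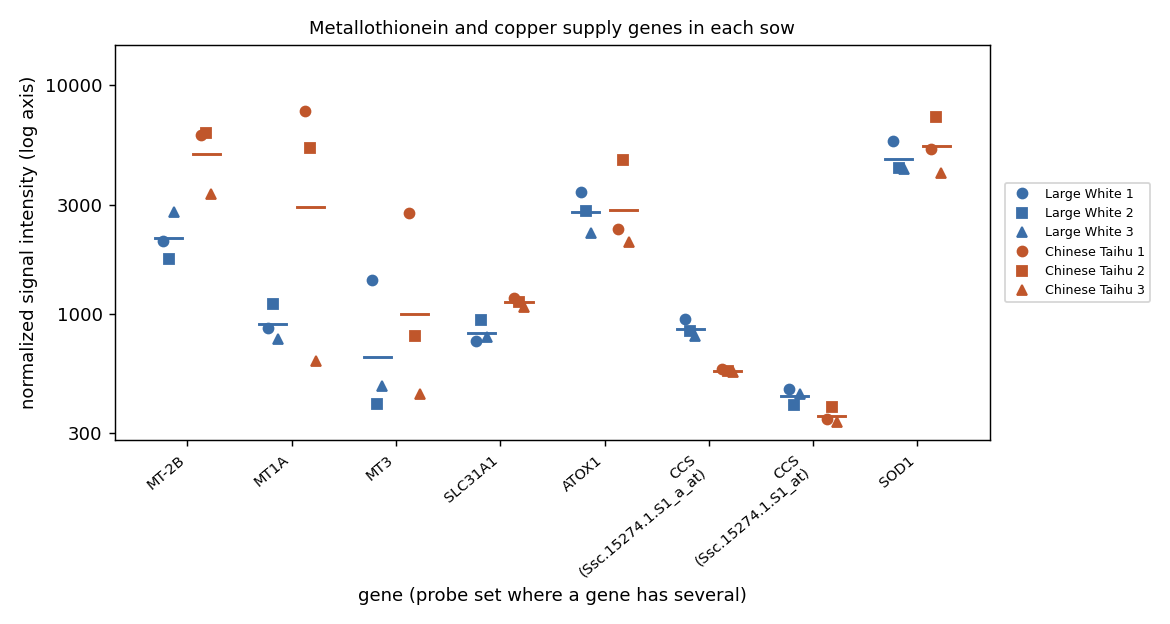
Normalized signal intensity (log axis) of 3 metallothioneins, the copper importer SLC31A1, the copper chaperones ATOX1 and CCS, and SOD1 in each sow, with a line at each breed's geometric mean. MT-2B and SLC31A1 are higher and CCS lower in all Chinese Taihu sows, while MT1A is high in Chinese Taihu sows 1 and 2 (7659.5 and 5314) and low in sow 3 (625).

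None of 12 iron genes passed (median 0.14). FTL and FTH1, the chains of the iron store ferritin, differed by -0.08 (95% interval -0.38 to 0.22) and -0.07 (95% interval -0.34 to 0.19) log2 units, and PCBP2, an iron chaperone, differed by -0.02.

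**Figure D5:**
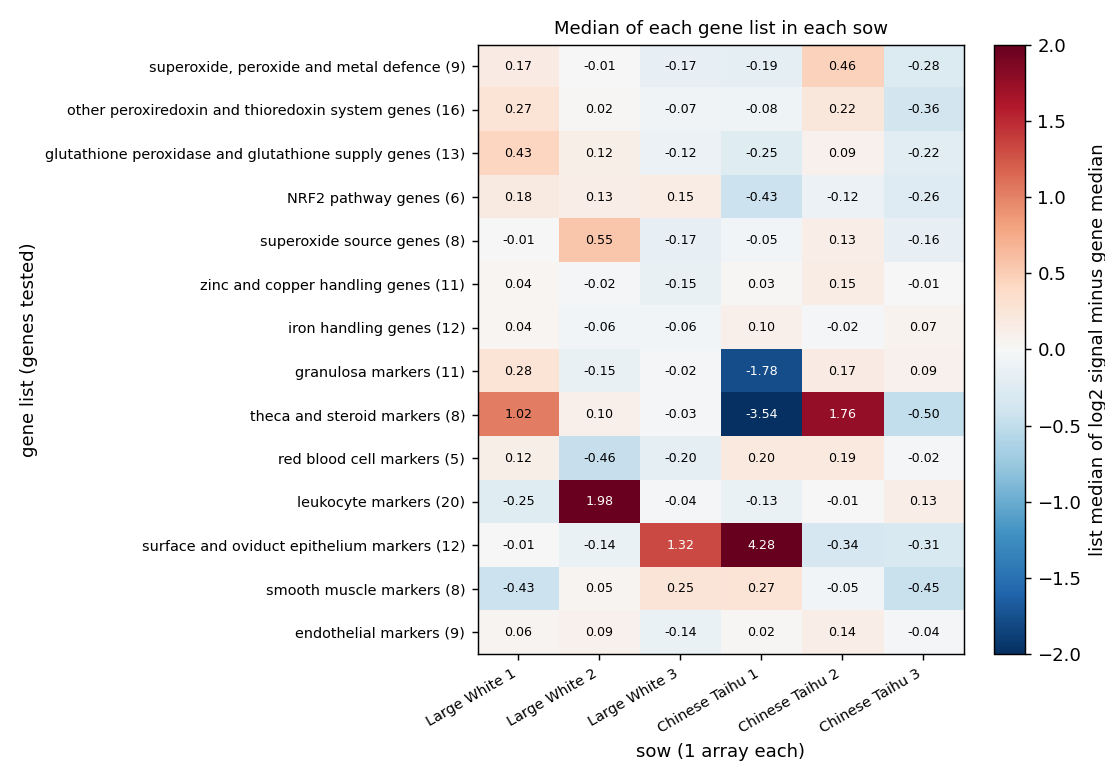
Median over each gene list (1 brightest probe set a gene) of log2 signal minus the gene's median over the 6 arrays, per sow, with the number of genes tested in parentheses; the color scale stops at 2 and -2. The defence lists stay between -0.43 and 0.55, while theca and steroid genes span -3.54 to 1.76 and epithelial genes reach 4.28 in Chinese Taihu sow 1.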

How the data were processed

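Affymetrix porcine arrays of 6 sows were used. The authors computed signal intensities with MAS 5.0 (MAS5 2.3.1 in the submitters' processing notes), scaled each array and normalized between arrays with the dChip invariant set; the deposited intensity values are linear. Tables of the authors' own breed comparison (fold changes and p-values) were not used. The genome build behind the annotation is not given in the sources used here.

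After 188 control probe sets were left out, signals were floored at 1 and taken to log2, and probe sets above 50 on at least 3 arrays were kept. Breeds were compared with limma 3.58.1 in R 4.3.3 (lmFit, eBayes with trend, two-sided, Benjamini-Hochberg over 19196 probe sets), after the script was tested on simulated data. Tables and figures were made with Python 3.11.15, pandas 2.3.3, numpy 2.4.6 and matplotlib 3.10.9. The number of arrays limits the precision. Replicates are separate sows, and the sample labels name no batch shared by sows of the same number. Of all probe sets, 10099 had 1 symbol, 198 several and 13826 none; all 9 members matched RefSeq (Sscrofa11.1) by gene ID under the same symbol.

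Named genes were the members, the called and the 3 brightest genes of each defence list, the brightest cell type markers, and the 3 genes most correlated with each of the 3 members of widest range. MT3, INHBA, CNN1, ACTG2, AHSP, HBE1 and KLF1 were named outside this rule, with their values known. Members and lists were chosen with earlier results of these data known. Alternatives were other normalizations, filters, offsets, variance priors, array weights, the methods' t-test, the replicate block and leaving out each sow.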

Additional observations from a re-analysis of the deposited data

How the results depend on the processing

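The calls of MT-2B (1.06 to 1.50 log2 units) and of the CCS probe set Ssc.15274.1.S1_a_at (-0.66 to -0.54) held an unadjusted p of at most 0.05 in each of 15 alternatives. The breeds did not overlap for either, so leaving out 1 sow could not turn the direction. The number of member probe sets at that p was 2 or 3 throughout. With single sows left out, signs turned for SOD1 (-0.03 to 0.38), SOD2 (-0.35 to 0.19), CAT (-0.30 to 0.44), PRDX1 (-0.32 to 0.04), TXN Ssc.6696.1.A1_at (-0.32 to 0.10) and TXN Ssc.6696.1.S1_at (-0.04 to 0.34); under median scaling CAT was -0.0011. The members' median lay between -0.30 and 0.10 without single sows. Over all probe sets, the 4 calls at adjusted p became 11 with array weights, 2 with log2 of signal plus 50, and 0 with the methods' t-test, with the replicate block or with signal above 100 on all 6 arrays, and 2 to 4 without single sows. The 741 at unadjusted p became 1303 with array weights, 373 without Large White sow 2 and 1225 without Chinese Taihu sow 2; the cause was not tested. Without Large White sow 3 the balance of direction turned, to 468 higher and 450 lower. The 3 calls in the other defence lists became 5 with array weights and 1 to 6 without single sows. Same-numbered sows of the breeds deviated together at r = -0.172, -0.137 and 0.273, so the numbers pair no samples; with the replicate block 719 probe sets had an unadjusted p of at most 0.05, and CCS (p = 0.0308) and MT-2B (p = 0.0244) kept theirs. With 3 arrays a breed, the intervals given for SOD1, SOD2, CAT, the peroxiredoxins and TXN hold differences of either sign, which these data do not exclude. Interval widths rest on limma's pooled variances.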
